A study of Mus musculus with 68 samples.

Results

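The SLC25 family is the largest group of solute carriers in the inner mitochondrial membrane, and its members were taken from the table of 36172 genes by symbol: every gene named Slc25a and a number, together with Ucp1, Ucp2 and Ucp3. This gave 47 members, of which 46 had a count in at least 1 of the 68 neurons. The neurons were single dopamine (DA) neurons of the ventral tegmental area (VTA), 33 from 3xTg mice and 35 from WT mice, all 12 months old, whose contents were drawn into the recording pipette after a patch clamp recording and sequenced one by one (Patch-seq). 3xTg mice carry human APP and tau transgenes together with a mutant presenilin gene, and serve as a model of amyloid and tau pathology in Alzheimer's disease. The transgenes are driven by the neuronal Thy1.2 promoter. Mice of both genotypes and both sexes were of a hybrid C57Bl/6 and SvJ background, and the labels name neither the mouse nor the sex behind a cell. The cells of a genotype were hence treated as a single sample, genotypes were compared without a test, and each SD given is a spread over cells and not over animals.

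Carriers of this family share a fold of paired helices and move nucleotides, phosphate, amino acids, carboxylic acids, cofactors and metal ions between the cytosol and the mitochondrial matrix. ADP/ATP exchange and phosphate uptake feed ATP synthase, and the aspartate/glutamate carrier works in the malate-aspartate shuttle, which brings the electrons of cytosolic NADH into mitochondria. The uncoupling proteins form a branch of their own, in which Ucp1 is the heat-producing proton channel of brown fat, while Slc25a14 (UCP5, or brain mitochondrial carrier protein) and Slc25a27 (UCP4) are the forms known from neurons. DA neurons of the VTA are pacemakers that fire slowly and spontaneously in brain slices.

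A gene was called expressed when 80% or more of the cells of either genotype had a count of it, which kept 4165 genes. Of the 47 members 11 passed this limit, 7 of them in both genotypes and 4 in 3xTg alone (Slc25a14, Slc25a25, Slc25a17 and Slc25a27). A member that passed through 3xTg alone had to be counted in fewer WT cells, so the number of members that passed says nothing about direction. Genotypes were compared by 2 measures. The first was the log2 ratio, 3xTg against WT, of the counts summed over cells, each sum being scaled to 1000000 counts of its genotype (CPM), with an exact interval at 95% that covers counting error only. The second compared the means of log2(normalized count + 1) over cells (3xTg less WT) and was taken relative to the median expressed gene, which was itself 0.46 higher in 3xTg. A member was called higher or lower when both measures passed 1.5-fold (0.58 on the log2 scale).

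The 4 expressed members called higher in 3xTg were Slc25a25, Slc25a14, Slc25a12 and Slc25a17, and no expressed member was called lower. Over all expressed genes 8.19% were called higher and 10.3% lower by the same rule. With edgeR TMM factors, the first measure was instead the log2 ratio of mean scaled counts over cells. These shares were then 11.7% and 7.49%, and the same 4 members were called. The median of that ratio over all expressed genes was 0.08, where the median for summed counts was −0.03. The upstream sequences of these 4 members are shown because they are the called set, although 3 of the 4 passed the limit through 3xTg alone and the runs of label numbers described below called different members of it. Each run below is the 250 bases before the RefSeq transcription start nearest to the start of the gene in the deposited table (build GRCm38.p6, the assembly of mm10), written 5′ to 3′ on the strand of the gene. Capitals mark a GC box (GGGCGG), the promoter box named CCAAT after its letters, the core of an ETS site (CCGGAA) or an E-box (CACGTG), read on either strand.
Slc25a14, chrX:48623328-48623577, plus strand: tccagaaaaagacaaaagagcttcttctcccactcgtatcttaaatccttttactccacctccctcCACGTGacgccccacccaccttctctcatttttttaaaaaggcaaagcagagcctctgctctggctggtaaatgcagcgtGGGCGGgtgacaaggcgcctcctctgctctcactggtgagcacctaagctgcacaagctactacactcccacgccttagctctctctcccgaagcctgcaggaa
Slc25a25, chr2:32451471-32451720, minus strand: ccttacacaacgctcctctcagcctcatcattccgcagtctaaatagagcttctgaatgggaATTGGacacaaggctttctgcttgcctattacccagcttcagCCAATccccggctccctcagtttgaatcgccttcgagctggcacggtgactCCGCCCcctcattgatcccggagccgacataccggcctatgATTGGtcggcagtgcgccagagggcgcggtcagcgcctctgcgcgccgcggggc
Slc25a17, chr15:81360766-81361015, minus strand: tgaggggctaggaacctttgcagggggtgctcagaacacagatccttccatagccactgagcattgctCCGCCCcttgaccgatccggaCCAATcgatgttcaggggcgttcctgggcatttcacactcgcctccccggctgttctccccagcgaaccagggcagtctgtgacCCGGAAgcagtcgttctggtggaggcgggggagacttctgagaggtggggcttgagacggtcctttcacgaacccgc
Slc25a12, chr2:71367756-71368005, minus strand: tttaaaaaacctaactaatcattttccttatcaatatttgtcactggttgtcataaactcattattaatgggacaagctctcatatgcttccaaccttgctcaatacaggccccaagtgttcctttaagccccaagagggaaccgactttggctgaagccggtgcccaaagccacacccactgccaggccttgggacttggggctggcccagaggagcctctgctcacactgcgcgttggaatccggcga

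The GC box stood in the windows of Slc25a14, Slc25a25 and Slc25a17, and in 32.7% of all 32851 promoter windows of this length. The CCAAT box was found 3 times before Slc25a25 and 1 time before Slc25a17, and in 33.8% of all windows. The ETS core was found before Slc25a17 and in 12.03% of all windows, and the E-box before Slc25a14 and in 6.02% of all windows. The cyclic AMP response element (TGACGTCA) and the core site of estrogen-related receptors (AAGGTCA) were searched for in the same way and were in none of the 4 windows. Slc25a14 and Slc25a25 have 3 RefSeq starts each, and their windows differ: the third Slc25a25 start holds the cyclic AMP response element, and the first Slc25a14 start lacks the GC box. The window of Slc25a12 held none of the 6 motifs, its start lay 201 bases from the gene start of the deposited table, and no motif was shared by the 4 members. The GC content of the windows was 52.8% for Slc25a14, 60% for Slc25a25, 61.2% for Slc25a17 and 49.6% for Slc25a12, where the median window had 52.4%. Promoters were found for 37 of the 47 members, with 46 start sites between them, and 31 of these 46 windows held a GC box.

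Slc25a14 lies on the X chromosome (chrX:48623580-48662294 in mm10, plus strand). Its normalized count ranged from 0 to 1146 with a median of 87.4 in 3xTg cells, and from 0 to 424 with a median of 1.82 in WT cells. The genotypes overlapped from 0 to 424, 3 3xTg cells lay above the highest WT cell, and 6 of 33 3xTg and 17 of 35 WT cells were at 0. A count was present in 27 of 33 3xTg cells (81.8%, with a Clopper-Pearson interval of 64.5% to 93.02%) and in 18 of 35 WT cells (51.4%, with 33.99% to 68.6%). The mean of log2(normalized count + 1) was 5.44 ± 2.89 (SD, n = 33 cells) in 3xTg and 3.09 ± 3.29 (SD, n = 35 cells) in WT. The means were 2.35 apart, which is 1.89 once the shift of the median gene is taken off. The summed level was 116 CPM in 3xTg (4265 counts) and 58.99 CPM in WT (2007 counts), a log2 ratio of 0.98 (interval 0.90 to 1.05). Slc25a14 stood 3rd of the 47 members by the relative difference and 5th by the gap between shares of cells. Among all expressed genes it lay at percentile 98.3 of the relative difference and at percentile 96.9 of the summed ratio.

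Most of the difference was one of how many cells had a count. Among cells with a count, the middle 3xTg cell had 106 normalized counts and the middle WT cell 81.4, and with these 27 and 18 cells alone the relative difference of means was 0.55. When all cells were thinned to the same 700471 counts (2 3xTg and 5 WT cells were too shallow for this), Slc25a14 was present in 27 of 31 3xTg cells (87.1%) and in 17 of 30 WT cells (56.7%). The gap between the shares was thus also there at equal totals.

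The difference went with the number of genes counted in a cell. Cells of 3xTg had a count for a median of 8629 genes (range 3800 to 10527) and WT cells for 7603 (range 3886 to 10146). In cells with at least 6000 genes, Slc25a14 was present in 22 of 27 3xTg cells (81.5%) and in 16 of 22 WT cells (72.7%), at a mean of 5.04 ± 2.596 and 4.50 ± 3.05 (SD over cells, log2 scale). There the summed level was lower in 3xTg, with 73.7 CPM against 87.6 CPM, a log2 ratio of −0.25, and the relative difference of means was 0.24. In the remaining cells, with under 6000 genes, it was present in 5 of 6 3xTg cells and in 2 of 13 WT cells, with 349 CPM against 9.76 CPM. The call of Slc25a14 as higher in 3xTg therefore rested on cells with few genes counted. The direction of its summed ratio turned without them, while the relative difference stayed positive. The WT cell with label number 94 (6340 genes, 406 counts of Slc25a14) was among the cells with at least 6000 genes. The ratio of those cells without it was not calculated. Among 3xTg cells the level of Slc25a14 had a Spearman correlation of −0.23 (n = 33) with the number of genes counted, and among WT cells 0.38 (n = 35). These correlations run over cells of 1 sample and are given as a description.

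**Figure D1:**
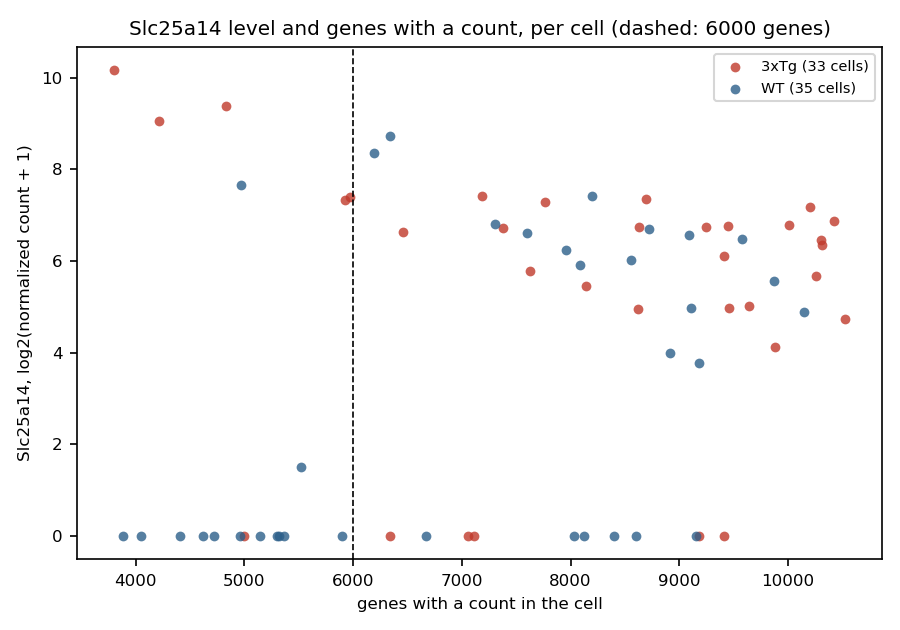
The level of Slc25a14 as log2(normalized count + 1), vertical axis, against the number of genes with a count, horizontal axis, with 1 point for each of the 33 3xTg and 35 WT cells. Left of the dashed line at 6000 genes, 11 of 13 WT cells are at 0 and 5 of 6 3xTg cells have a count, while the genotypes overlap to its right.

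The highest Slc25a14 level was in the 3xTg cell with label number 24, which held 17.5% of the summed counts of the genotype and had the fewest genes with a count of any cell (3800). Without this cell the log2 ratio of sums was 0.74. The highest WT level was in the cell with label number 94, which held 20.2% of the WT counts, and without it the ratio was 1.25.

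Label numbers lie in runs of 1 genotype, and what they mark is not stated. In the first runs Slc25a14 was present in 16 of 21 3xTg cells (numbers 24 to 55, median normalized count 106) and in 6 of 17 WT cells (numbers 1 to 22, median 0). In the second runs it was present in 11 of 12 3xTg cells (numbers 76 to 92, median 74.4) and in 11 of 15 WT cells (numbers 57 to 74, median 30.4). The other 3 WT cells (numbers 94 to 96) were in neither comparison, and 1 of them had a count. The log2 ratio of sums was 1.72 in the first runs and 0.35 in the second, and the relative difference was 2.63 and 1.01. The direction was the same in both, but in the second runs the summed ratio did not pass 1.5-fold. The WT cells of the first run had a median of 5367 genes with a count, against 7768 in the 3xTg cells of the first run, 8559 in the WT cells of the second and 9428.5 in the 3xTg cells of the second. Whether this gap had a part in the result was not tested further than by the split at 6000 genes.

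**Figure D2:**
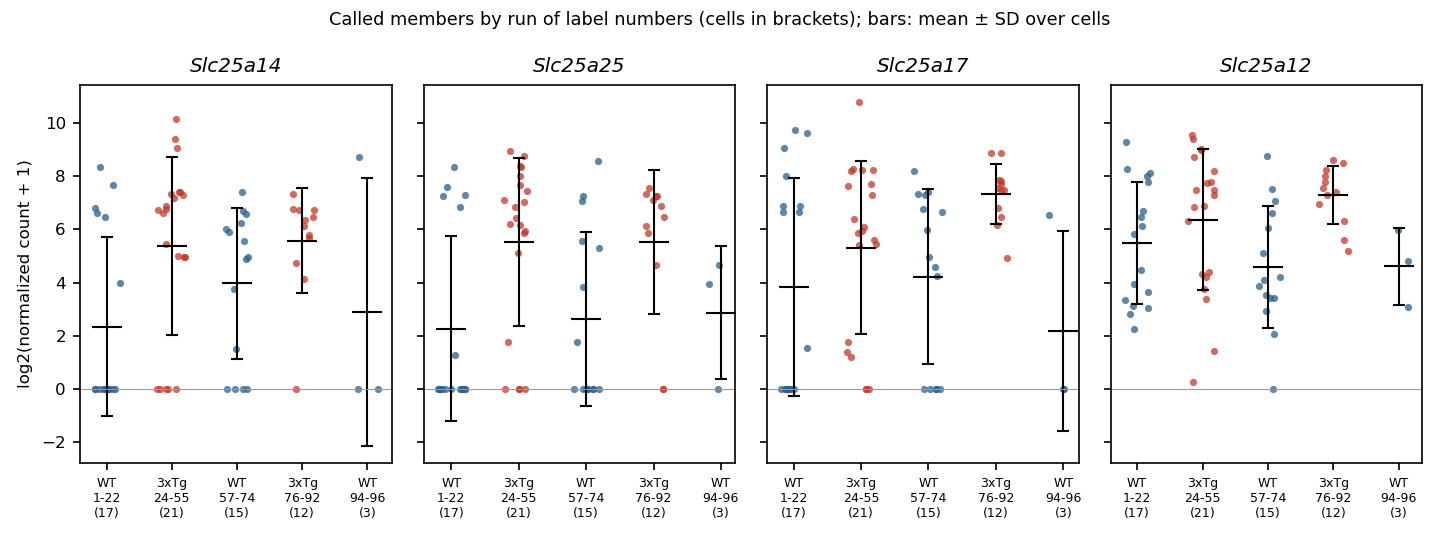
Level of the 4 members called higher, as log2(normalized count + 1), in each run of label numbers, with 1 point for each cell (3xTg red, WT blue) and bars for the mean ± SD over cells. Slc25a14 and Slc25a25 have many WT cells at 0. Slc25a12 has a count in nearly every cell, small in some cells of both genotypes, and differs in the size of the count.

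Sex-linked transcripts were checked because Slc25a14 is X-linked. A count of a Y-linked gene (Ddx3y, Kdm5d, Uty or Eif2s3y) was present in 31 of 33 3xTg and 34 of 35 WT cells. In 27 and 31 of these, respectively, Xist was also counted, so a count alone does not give the sex of a mouse. The level of the 4 Y-linked genes, however, differed widely between runs. In the second runs their summed level was 84.4 to 1036 CPM (median 397) in the 15 WT cells and 0 to 8.57 CPM (median 3.46) in the 12 3xTg cells, without overlap. In the first runs it was 0 to 73.4 CPM (median 4.27) in WT and 0 to 687 CPM (median 4.98) in 3xTg, and the 3 remaining WT cells had 2.03 to 272 CPM. Over all cells Ddx3y was called lower in 3xTg (log2 ratio −1.11), with a ratio of 2.64 in the first runs and −6.86 in the second. The Y-linked level thus moved with genotype in the second runs, where it cannot be told apart from genotype for any member. Its part in the Slc25a14 values was not tested. Cells with any Y-linked count are 65 of the 68, and in them Slc25a14 had a log2 ratio of 0.96 and a relative difference of 1.79. In the first runs 5 of 17 WT and 9 of 21 3xTg cells had a Y-linked level above 10 CPM, and Slc25a14 was not compared across that limit. Of the other X-linked members, Slc25a5 (ANT2) had a log2 ratio of 0.09, and Slc25a43 was counted in 4 3xTg cells alone.

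Of the uncoupling protein type, Slc25a27 was the nearest to Slc25a14 in level. Per kilobase of exon, the summed level of Slc25a14 was 49.1 CPM (3xTg) and 24.95 CPM (WT), and that of Slc25a27 was 27.2 and 24.2. The normalized count of Slc25a27 ranged from 0 to 450 (median 82.3) in 3xTg and from 0 to 1002 (median 30.4) in WT. It was counted in 29 of 33 3xTg cells (87.9%) and 26 of 35 WT cells (74.3%), with a log2 ratio of 0.17 (interval 0.10 to 0.24) and a relative difference of 0.91, so it was not called. The WT cell with label number 5 held 25.6% of its WT counts, and without it the ratio was 0.56. In the first runs the ratio was −0.46 and in the second 0.92, so that the direction of this member was not the same in both.

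Ucp2, the uncoupling protein found widely outside brown fat, was counted in 20 cells of each genotype. Its levels were low in most cells, with medians of 2.64 and 0.78 normalized counts, and a few cells carried nearly all of its counts (up to 674 in 3xTg and 1076 in WT). The summed level was 27.7 CPM against 59.5 CPM, a log2 ratio of −1.11, while the relative difference of means was −0.21. In cells with at least 6000 genes the ratio of Ucp2 was 0.16 and the relative difference 0.06, so that its direction turned. A single cell held 37.8% of the 3xTg and 35.8% of the WT counts. Ucp3, the muscle form, had 2 counts in 3xTg and 14 in WT. Ucp1 had 1 count in a WT cell and Slc25a30 (KMCP1) had 1 count in a 3xTg cell. By a floor of 3 cells, a count in 0 of the 33 3xTg cells stands for a share of up to 9.09%, and in 0 of the 35 WT cells up to 8.57%. The upper Clopper-Pearson limits are larger, at 10.6% and 10.003%. These limits take the cells as independent draws, which cells of unnamed mice need not be. By their counts, the 2 neuronal forms and Ucp2 were the measurable uncoupling proteins of these neurons. Over all cells Slc25a14 was the one of them called higher, while in the second runs Slc25a27 was called and Slc25a14 was not. In cells with at least 6000 genes neither was called, and Slc25a27 had a ratio of 0.39 and a relative difference of 1.08, against −0.25 and 0.24 for Slc25a14.

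**Figure D3:**
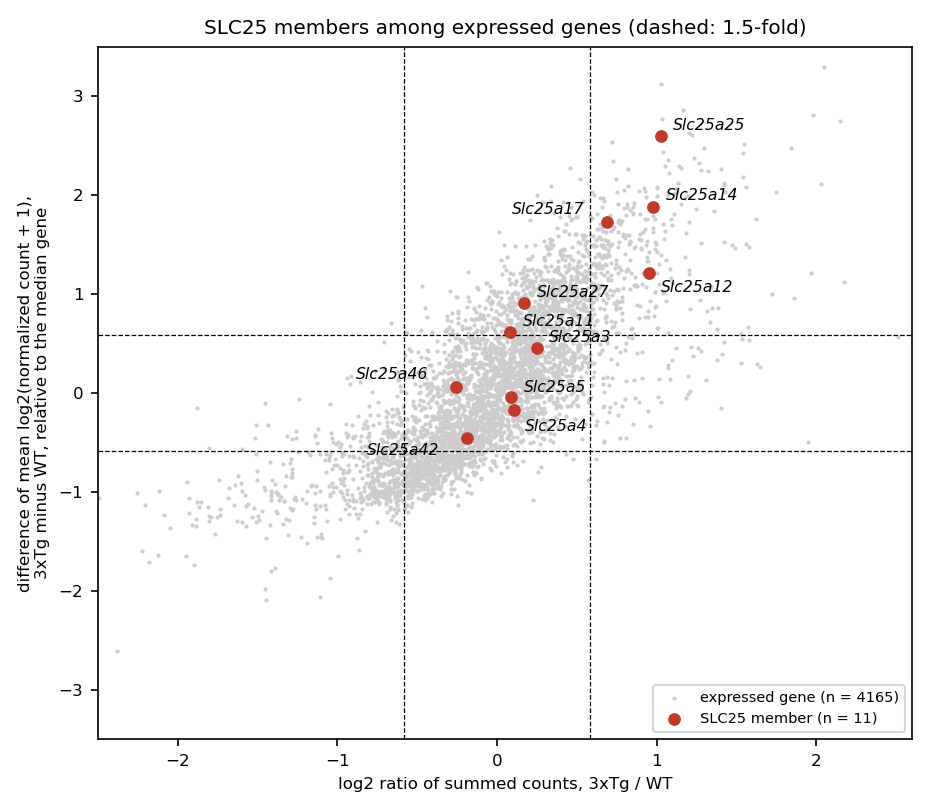
The 2 measures of the genotype difference for the 4165 expressed genes (grey), with the 11 expressed members in red. The horizontal axis is the log2 ratio of summed counts and the vertical axis the difference of means relative to the median gene, dashed lines mark 1.5-fold, and 6 genes lie outside the axes. Slc25a25, Slc25a14, Slc25a12 and Slc25a17 lie in the upper right corner. Slc25a27 and Slc25a11 lie past the dashed line of the vertical axis alone, and the other 5 members lie within both pairs of lines.

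Slc25a25 (SCaMC-2), a calcium-regulated carrier that exchanges ATP-Mg for phosphate, had the largest relative difference of the family. Its normalized count ranged from 0 to 495 (median 88.2) in 3xTg and from 0 to 377 (median 0) in WT. It was counted in 27 of 33 3xTg cells (81.8%, interval 64.5% to 93.02%) and 15 of 35 WT cells (42.9%, 26.3% to 60.6%). The mean level was 5.53 ± 2.95 in 3xTg and 2.47 ± 3.24 in WT (SD over cells, log2 scale), a relative difference of 2.595. The summed level was 117 CPM against 57.6 CPM, a log2 ratio of 1.03 (interval 0.95 to 1.10). In cells with at least 6000 genes the ratio was 0.54 and the relative difference 2.03, so that the first measure was just short of 1.5-fold. The ratio was 1.20 in the first runs and 0.55 in the second. The gene overlaps Naif1 on the opposite strand.

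Slc25a12 (aralar), the calcium-regulated aspartate/glutamate carrier of neurons, was the one called member that passed the limit in both genotypes. It was counted in 33 of 33 3xTg and 34 of 35 WT cells, so its difference lay in the size of the count and not in its presence. Small fractional counts stood in both genotypes, such as 0.25 in the 3xTg cell with label number 42 and 3.5 in the WT cell with number 18. Whether the genotypes differed in the share of cells with a large count was not tested. The normalized count ranged from 0.20 to 760 (median 167) in 3xTg and from 0 to 632 (median 21.2) in WT. The mean was 6.70 ± 2.24 in 3xTg and 5.02 ± 2.23 in WT (SD over cells, log2 scale), a relative difference of 1.21. The summed level was 198 CPM against 103 CPM, a log2 ratio of 0.95 (interval 0.89 to 1.01). In cells with at least 6000 genes it was 0.84 with a relative difference of 1.31. In the first runs the ratio was 0.62 and the relative difference 0.49, and in the second 1.26 and 2.12. None of the Slc25a12 counts above 0 was a whole number (100% were fractional, tolerance 0.001), where 55.3% of the counts above 0 were fractional over all genes and cells pooled, and a gene model on the opposite strand (Gm13641) overlaps it. Its count is an estimate to that extent, as were, in lower shares, those of Slc25a17 (86% fractional), Slc25a14 (75.6%) and Slc25a25 (61.9%).

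Slc25a17, a carrier for CoA, FAD and NAD that sits in the membrane of peroxisomes and not of mitochondria, was counted in 30 of 33 3xTg cells (90.9%) and 20 of 35 WT cells (57.1%). The normalized count ranged from 0 to 1794 (median 112) in 3xTg and from 0 to 861 (median 23.0) in WT. The relative difference was 1.73 and the summed level 170 CPM against 105 CPM, a log2 ratio of 0.69 (interval 0.63 to 0.75). This was the called member closest to the threshold. The 3xTg cell with label number 24 held 18.8% of its 3xTg counts, and without that cell the ratio was 0.44 and Slc25a17 was not called. In cells with at least 6000 genes, which leave that cell out, it was called, with a ratio of 0.81 and a relative difference of 2.06. The ratio was 0.36 in the first runs and 0.99 in the second.

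As a description of how the called members fell on the same cells, all 4 were present in 21 of 33 3xTg cells and in 5 of 35 WT cells, a gap that the limit on expression favours because 3 of the 4 passed it through 3xTg alone. Slc25a14 and Slc25a25 were both present in 23 3xTg and 9 WT cells. Slc25a14 without Slc25a25 was found in 4 3xTg and 9 WT cells, Slc25a25 without Slc25a14 in 4 and 6, and neither in 2 and 11. The number of members counted per cell had a median of 23 in 3xTg (range 7 to 31) and 19 in WT (range 8 to 29), and it followed the number of genes counted per cell (Spearman correlation 0.89 within 3xTg and 0.89 within WT, a description over cells).

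With the split at 6000 genes, Slc25a12 and Slc25a17 were the 2 members called higher, where 6% of expressed genes were called higher and 16.5% lower, and none was called lower. In the first runs Slc25a14 and Slc25a25 were called higher, against 14.2% of expressed genes. In the second runs Slc25a12, Slc25a17, Slc25a27, Slc25a11 and Slc25a5 were called higher, against 11.9%. No member was called in both runs. The summed ratio was above 0 for 9 of the 11 expressed members over all cells, for 6 in the first runs, for 9 in the second, and for 6 in both, where over all cells it was above 0 for 1985 of the 4165 expressed genes. Since 4 of the 11 passed through 3xTg alone, this tally leans towards 3xTg by the choice of members. The filter was also replaced by a count in at least 50% of all 68 cells, a setting chosen after the data had been seen, which does not favour 1 genotype. It kept 21 members, of which 7 were higher (Slc25a1 and Slc25a23 among them, besides the 4) and Slc25a21 was lower, where 9.16% of 7426 genes were higher and 12% lower.

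Over all cells, the members that carry most of the RNA of the family had log2 ratios between 0.08 and 0.25. Per kilobase of exon the order was led by Slc25a4 (ANT1), with 677 CPM in 3xTg and 629 CPM in WT, then Slc25a5 (ANT2) with 340 and 320, Slc25a3, the phosphate carrier, with 128 and 107, and Slc25a11, the oxoglutarate carrier, with 106 and 101. Slc25a4, Slc25a3 and Slc25a5 held 61.5% of all counts of the family. Slc25a17 and Slc25a14 came next, and were followed by Slc25a1, Slc25a39, Slc25a46 and Slc25a27. Slc25a14 was thus 6th of the family by level per length.

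**Figure D4:**
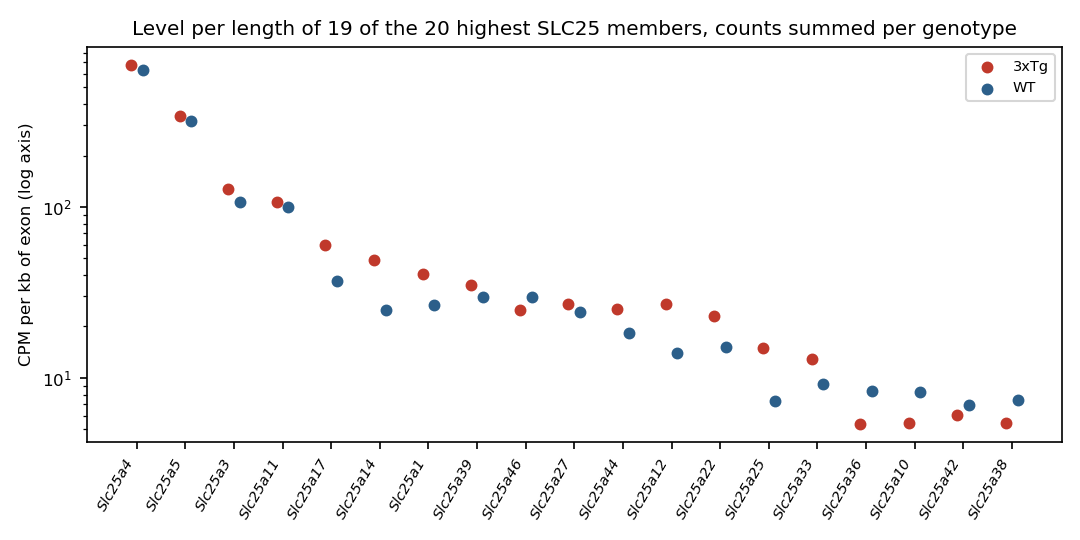
Level of 19 of the 20 members with the highest mean over genotypes, in CPM per kilobase of exon on a log axis, from counts summed over the cells of each genotype (3xTg red, WT blue). Slc25a4 leads with 677 and 629, and the points of the genotypes stand further apart for Slc25a17, Slc25a14, Slc25a12 and Slc25a25, and also for Slc25a1 (40.6 and 26.8), Slc25a22 (23.03 and 15.1) and, with WT higher, Slc25a36 (5.39 and 8.42) and Slc25a10 (5.46 and 8.29), than for the 4 most abundant members.

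Slc25a4, the ADP/ATP exchanger of heart, muscle and brain, was counted in every cell. Its normalized count ranged from 84.3 to 3517 (median 1674) in 3xTg and from 136 to 3322 (median 1194) in WT, and the log2 ratio was 0.11 with a relative difference of −0.17. Slc25a3 was also counted in every cell, from 2.38 to 1443 (median 767) in 3xTg and from 2.65 to 1830 (median 487) in WT, with a ratio of 0.25 and a relative difference of 0.46. For Slc25a5 the ratio was 0.09 and the relative difference −0.04, over ranges of 0 to 1747 and 0 to 2117. Slc25a11 had a ratio of 0.08 and a relative difference of 0.61, with medians of 208 and 96.2 normalized counts. In the first and second runs the ratio was −0.37 and 0.65 for Slc25a5 and −0.28 and 0.65 for Slc25a11, so that their direction was not the same in both, while for Slc25a4 it was 0.04 and 0.20 and for Slc25a3 0.10 and 0.32. The ranges of the genotypes overlapped for each of these, and the highest Slc25a11 cell was a WT cell (1200 normalized counts, against 565 in 3xTg). The members nearest to the threshold without passing it were Slc25a3 and Slc25a27 on the higher side, and Slc25a42, a CoA carrier (ratio −0.19, relative difference −0.46), and Slc25a46, an outer membrane protein of mitochondrial fission (ratio −0.26, relative difference 0.06), on the lower side.

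The median log2 ratio of the 11 expressed members was 0.17, and 0.14 without Slc25a14, where the median over all expressed genes was −0.03. Over the 7 members that passed in both genotypes the median was 0.09, and over the 2892 genes that did so it was −0.11. By the relative difference these 7 members had a median of 0.06, against −0.24 for the 2892 genes. The family as a whole took 0.473% of all counts in 3xTg and 0.415% in WT. The ratio of Slc25a14 was 0.98 over all cells, where Slc25a25 was higher by both measures, and −0.25 in cells with at least 6000 genes. Since Slc25a14 and 3 of the other 10 expressed members passed the limit through 3xTg alone, these places within the expressed set are a description.

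Among the adenine nucleotide and phosphate carriers 4 of 8 members were expressed, 1 was called higher (Slc25a25) and none lower. Slc25a23 (SCaMC-3), a calcium-regulated relative of Slc25a25, was not expressed by the limit but showed the widest gap in share of cells of the whole family, with 25 of 33 3xTg cells (75.8%) against 10 of 35 WT cells (28.6%). Its log2 ratio was 0.90 and its relative difference 1.91, and a single cell held 54.6% of its WT counts. Slc25a24 (SCaMC-1), the third of these relatives, was counted in 26 cells of each genotype at low levels (7.03 CPM against 9.64 CPM). Slc25a31 and Slc25a41 were nearly absent.

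Of the 12 amino acid carriers Slc25a12 alone was expressed. Slc25a22, a glutamate carrier, had 138 CPM in 3xTg cells against 90.6 CPM (log2 ratio 0.61, relative difference 0.31), and Slc25a44, a carrier of branched-chain amino acids, had 90.1 and 65.4 CPM (0.46 and 0.69). Both were counted in similar shares of cells. Slc25a13 (citrin), the aspartate/glutamate carrier of liver, was counted in 4 3xTg cells with 179 counts and in no WT cell. It was 55.3-fold higher when WT was set to a floor of 3 counts over the genotype. The exact interval of the log2 ratio, which covers the counting error of both sums, starts below that, at 5.48. Slc25a47 was counted in 3 3xTg cells and no WT cell. In both cases a few cells made the value. The astrocytic glutamate carrier Slc25a18 had 8.08 CPM in WT, of which 98.9% came from a single cell, and 0.22 CPM in 3xTg. Slc25a48 had no count in any cell.

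The di- and tricarboxylate carriers had 1 expressed member, Slc25a11, and none called. Slc25a1, the citrate carrier, had a log2 ratio of 0.60 and a relative difference of 0.77, and was counted in 24 of 33 3xTg and 21 of 35 WT cells. In cells with at least 6000 genes the 2 measures were 0.17 and 0.12. Its ratio was 1.27 in the first runs and 0.12 in the second. Slc25a21, the oxodicarboxylate carrier, was counted in fewer 3xTg cells (18 of 33, against 26 of 35 in WT), but at under 1.5 CPM in each genotype. The cofactor, nucleotide, carnitine and glutathione carriers had 2 expressed members of 11, Slc25a17 and Slc25a42. Slc25a26, which brings S-adenosylmethionine into mitochondria, had 18.1 CPM and 8.96 CPM (ratio 1.01). Slc25a36 and Slc25a40 had ratios of −0.64 and −1.29 but relative differences of −0.01 and −0.39, both were counted in a larger share of 3xTg cells, and a single cell held 35.8% and 33.8% of their WT counts. Of the mitoferrins, the iron carriers, neither was expressed. Slc25a28 (mitoferrin-2) was lower in 3xTg (257 counts against 704, relative difference −1.08), and 94.01% of the WT counts of Slc25a37 (mitoferrin-1) came from a single cell.

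**Figure D5:**
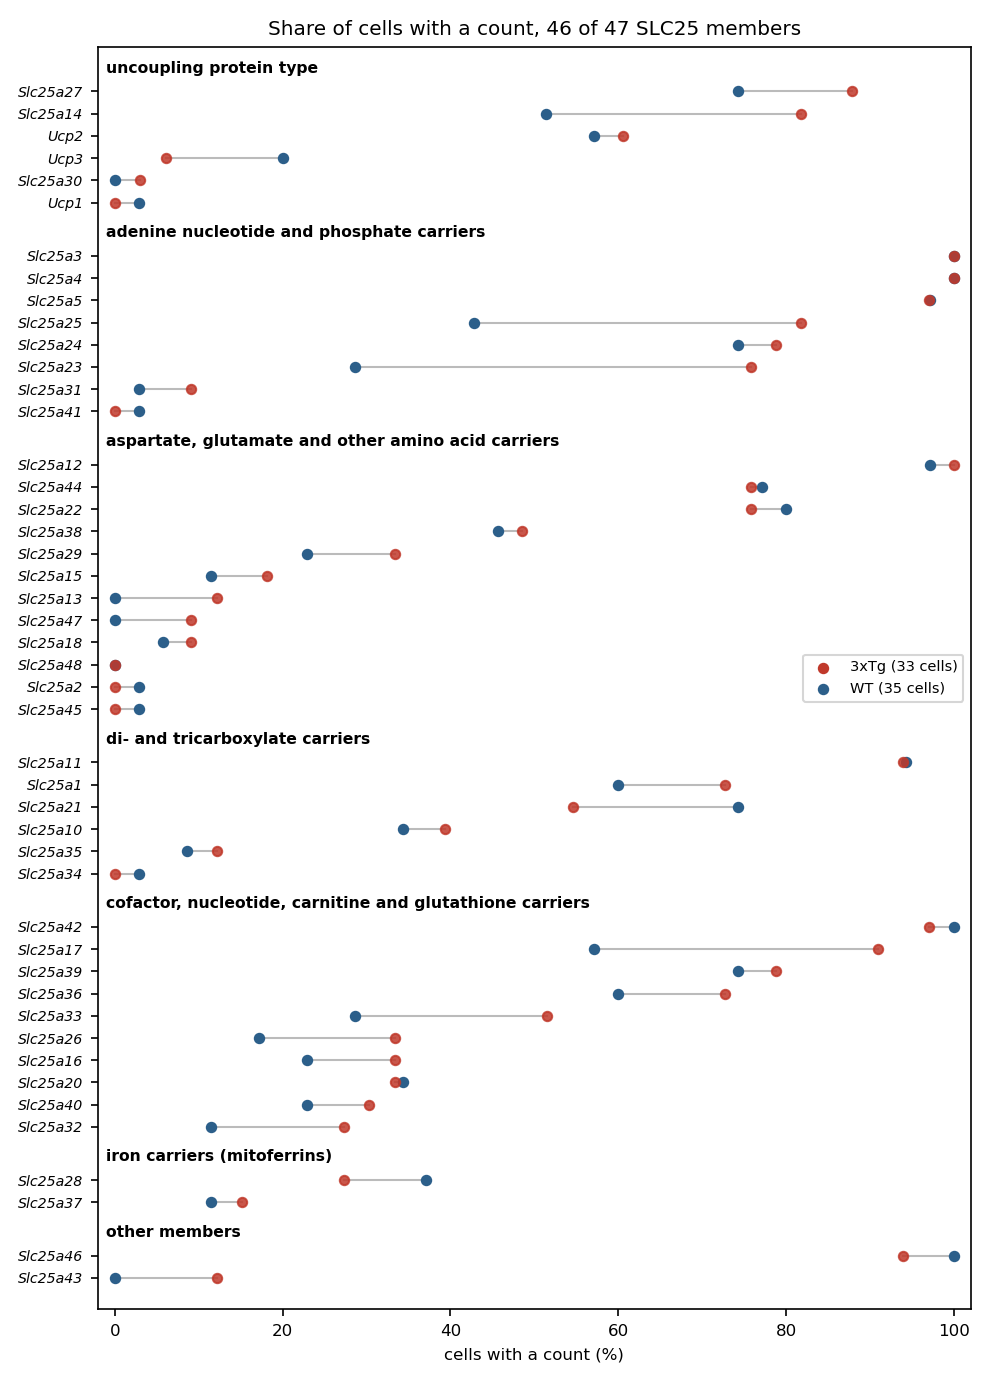
Share of cells with a count, in percent on the horizontal axis, for 46 of the 47 members by substrate group (3xTg red, 33 cells, WT blue, 35 cells). Among the widest gaps towards 3xTg are those of Slc25a23, Slc25a25, Slc25a17 and Slc25a14, and the widest towards WT are those of Slc25a21, Ucp3 and Slc25a28.

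Without a filter, and relative to the same median gene, 8 members passed 1.5-fold by both measures on the higher side and 4 on the lower (Slc25a28, Slc25a21, Ucp3 and Slc25a18), where 6.66% of the 17940 genes with a count did so on the higher side and 12.5% on the lower. The share of cells was larger in 3xTg for 29 of the 47 members and smaller for 15, where it was larger for 67.7% and smaller for 27.9% of all genes with a count. Slc25a33 was counted in 17 3xTg and 10 WT cells and Slc25a38 in 16 of each, while Slc25a15, Slc25a16, Slc25a20, Slc25a29, Slc25a32 and Slc25a35 were counted in 3 to 12 cells of a genotype, and Slc25a2, Slc25a34 and Slc25a45 in 1 WT cell each. None of these members passed 1.5-fold by both measures.

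Among the 5 members whose level across cells was most like that of Slc25a14 were Slc25a3 (mean of the Spearman correlations within the genotypes 0.50), Slc25a4 (0.36), Slc25a11 (0.34) and Slc25a25 (0.31). These were taken over 33 3xTg and 35 WT cells from the 25 other members with a count in at least 20 cells, of which the median was 0.12. For Slc25a3 the correlation was 0.55 in 3xTg and 0.45 in WT. Over the 10252 genes with a count in at least 20 cells the median correlation with Slc25a14 was 0.05 and the 90th percentile 0.29. Depth and the number of genes counted are shared by all genes of a cell, so these values are a description.

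Genes that work beside the carriers were described in the same way. Of the 7 TIM22 import genes in the table, which insert carriers into the inner membrane, 4 were expressed and none was called, with a median log2 ratio of 0.15. Of the 4 malate-aspartate shuttle enzymes 3 were expressed and none was called, though Got1, the cytosolic aspartate aminotransferase, had a ratio of 0.57 and a relative difference of 1.38. Among 11 other transporters of the mitochondrial membranes all were expressed and 3 were called higher, against 8.19% of expressed genes: Letm1, an inner membrane protein of cation exchange (1.04), Mtch2, an outer membrane relative of the carriers (0.81), and Vdac1, the outer membrane channel (0.67). Letm1 and Mtch2 passed the limit through 3xTg alone. None was called lower, and the median was 0.26.

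Totals ranged from 676556 to 1678624 counts in 3xTg cells and from 492505 to 1327367 in WT cells. The 6 DA markers were all counted in both genotypes, with a summed level of 6737 to 34166 CPM (median 19973) in 3xTg cells and 4652 to 26028 CPM (median 15057) in WT cells, and Th, Slc6a3 and Slc18a2 were in every cell. The astrocyte marker Aldh1l1 and both endothelial markers were at 0. The 5 microglia markers summed to a median of 29.9 CPM in 3xTg (highest cell 3642) and 24.1 CPM in WT (highest cell 2867), and their C1qb had 76.2 CPM against 321 CPM (log2 ratio −2.08). The 4 GABA neuron markers summed to 28.6 and 38.1 CPM. The 3 oligodendrocyte markers summed to 24.1 CPM (highest cell 556) and 35.4 CPM (highest cell 2538), and the 4 astrocyte markers to a median of 0 in both genotypes (highest cell 58.04 in 3xTg and 988 in WT). Of these, Mbp was called lower in 3xTg (log2 ratio −1.75, relative difference −1.26), and Gja1 had 0.71 CPM against 32.4 CPM, nearly all of it (1047 of 1104 counts) in 1 WT cell. The part of these markers in the called members was not tested beyond the cells without Pvalb, Tmem119, P2ry12 and Aldh1l1. In cells without a count of Pvalb, Tmem119, P2ry12 or Aldh1l1, Slc25a14 had a log2 ratio of 0.93 and a relative difference of 1.84, and Slc25a17 was not called, with a ratio of 0.58.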

How the data were processed

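Patch-seq libraries of single VTA DA neurons (33 cells from 3xTg and 35 from WT mice, 12 months old) were analysed. Per gene and cell the table holds an estimated count, which the authors made in Strand NGS from trimmed reads matched to mm10 RefSeq transcripts, without duplicate reads. Beside it stand log2 values that the authors normalized with DESeq2, used here as an alternative only. Size factors were recalculated from the deposited counts by the median of ratios (787 genes). Sums per genotype were taken of rounded counts. For expression, 80% or more of the cells of either genotype needed a count of 1 or more (4165 genes). Calls needed 1.5-fold by the summed ratio and by the difference of means of log2(normalized count + 1).

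Totals ran from 492505 to 1678624 counts per cell. Intervals (95%) of summed counts and of their ratios are for counting error alone and take reads as independent. Amplified reads without stated molecular identifiers are not independent molecules, so these intervals may be too narrow. Clopper-Pearson intervals (95%) of shares take cells as independent draws, and cover neither counting error nor the spread over animals. Cells are not replicates and the labels name no mouse, so no test was run, although the study's methods tested cells, and other differences between the 2 sets of mice cannot be told apart from genotype. Exon lengths were those of GENCODE M21 (GRCm38), found for 47 of 47 members, and promoters those of RefSeq (GRCm38.p6). Members named in full were Slc25a14, the uncoupling proteins, every called member, the 5 with the most counts, the 2 on each side of each threshold and the 5 most like Slc25a14. The values of 1 further member are not reported here, though it stands in the counts over members. The members, groups, lists and motifs were chosen with earlier results or the sequences of these data known. Alternatives were CPM and edgeR TMM scaling, pseudocounts of 0.1 and 10, thinned cells, subsets of cells, other filters, a 2-fold threshold and leaving out each cell. The calculations were tested on simulated data. Python 3.11.15, numpy 2.4.6, scipy 1.17.1, pandas 2.3.3, matplotlib 3.10.9, R 4.3.3 and edgeR 4.0.16 were used.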

Additional observations from a re-analysis of the deposited data

How the results depend on the processing

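No paired analysis was possible because no label number occurs in both genotypes. The log2 ratio of summed counts of Slc25a14 (0.98) was 1.07 after thinning, 1.72 in the first runs and 0.35 in the second. It was −0.25 in cells with at least 6000 genes, the WT cell with label number 94 among them, which is the opposite direction. The log2 ratio of mean scaled counts over cells, a different measure, was 1.11 with CPM scaling of each cell and 1.10 with edgeR TMM factors. Its relative difference of means (1.89) was 2.79 with a pseudocount of 0.1, 1.05 with 10, 2.63 in the first runs, 1.01 in the second, 1.88 with the deposited log2 values, 0.24 in cells with at least 6000 genes and 0.55 in cells with a Slc25a14 count alone. The share of WT cells with a count (51.4%) was 73.3% in the second runs and 72.7% in cells with at least 6000 genes. Pseudocounts have no bearing on the summed ratio or the shares, and scaling none on the shares. Of the 4 members called higher, 4 were so called under each scaling, each pseudocount and thinning. The number was 2 in the first runs, 2 in cells with at least 6000 genes, 1 with a 2-fold threshold (Slc25a25, against 1.85% of expressed genes), 9 with no filter, relative to the median of all genes with a count (against 9.15% of genes), and 7 with a count required in 50% of all cells. With no filter the number lower was 1 (against 4.40% of genes), and with the 50% filter 1. Why these values moved was not tested.

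Cells with Xist and no Y-linked count were 2 in 3xTg and 1 in WT, and their values describe single cells. There the relative difference of Slc25a14 was 5.36, its share of cells 100% in 3xTg and 0% in WT (0 of 1, which bounds nothing), the family median −0.75, and 5 members were called lower (against 25.6% of expressed genes) and 3 higher (against 18.6%). The log2 ratio and relative difference were −1.15 and −2.47 for Slc25a25 and −1.25 and −2.59 for Slc25a17, and the relative difference of Slc25a27 was −4.73. In the first runs the relative difference of Slc25a27 was −0.074.

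Leaving out each cell in turn, the Slc25a14 ratio lay between 0.74 and 1.25 and its relative difference between 1.70 and 2.06. Its share lay between 81.2% and 84.4% in 3xTg and between 50.0% and 52.9% in WT. The family median lay between 0.10 and 0.31, the number higher between 3 and 4, and the number lower was 0 each time. Slc25a14, Slc25a25 and Slc25a12 were called in 68 of 68 such sets and Slc25a17 in 67. Of the 46 members with a count, 7 were counted in 1 to 3 cells, and their direction cannot be read. Whether depth had a part in their low counts was not tested.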
